A study of Homo sapiens with 6 samples.

Results

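Chromatin remodelers and the enzymes that write and erase histone methylation were examined as a group of 75 genes among the 16834 genes measured in ribosome immunoprecipitates of HEK293-T cells. The members were chosen by gene symbol. They were the KMT2 and KMT5 methyltransferases, the KDM demethylases, the SETD, SMARC, CHD and ARID families, the core of Polycomb repressive complex 2 (PRC2) with EZH1, EZH2, SUZ12 and EED, the NSD proteins, DOT1L, EHMT1, EHMT2 and the acetyltransferases EP300 and CREBBP. The symbols searched for did not cover every gene of these families. ARID2, for example, was listed with the further SWI/SNF subunits instead. GENCODE lists 75 protein-coding genes with the symbols searched for and all 75 were in the table, so the authors' filter on low reads removed none of these 75.

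Histone methyltransferases place methyl groups on lysines of the histone tails, and demethylases remove them. Methylation of H3K4 and H3K36 accompanies transcription, whereas methylation of H3K9, H3K27 and H4K20 accompanies repression and compaction. The remodelers of the SWI/SNF, ISWI and CHD families use ATP to slide, space or evict nucleosomes. In dividing cells these marks and nucleosome arrays have to be restored on the daughter DNA after replication.

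The study asked whether ribosomes that carry a tag for only a part of the cell cycle can be used to recover the RNA of that phase from a mixed culture. Flp-In HEK293-T cells, a human embryonic kidney line, carried the ccTaggedRP construct as a single inserted copy driven by the CAG promoter, and both groups came from this stable line, grown without synchronization. The construct encodes 2 copies of mouse RPL10a, a protein of the large ribosomal subunit, separated by a self-cleaving peptide. The Flag-IPs (3 libraries) recovered RNA with the protein Flag-RPL10a-hCdt, whose Cdt1 degron is predicted to leave it in G1 and S, and the HA-IPs (3 libraries) recovered RNA with HA-RPL10a-hGem, whose geminin degron is predicted to leave it in S and G2/M. The 2 predicted windows share S phase, and no input RNA or untagged control was analysed here. The labels do not say whether the replicates were separate cultures, so p-values measure only the spread between these libraries, which may be technical.

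Each value is a normalized count, that is, the reads on a gene divided by a size factor of the library. The libraries held 23174532 to 44134833 reads on the listed genes, and the Flag-IPs were the shallower group on average (23174532 to 33429519 reads against 28737728 to 44134833). All 10 genes of a list of HEK293T markers were present, with a summed level of 71691 to 78366 normalized counts in the Flag-IPs and 76289 to 78049 in the HA-IPs, and 1 of them, PAX2, was called higher in the Flag-IPs (log2 fold change -0.79, adjusted p = 0.0467 by limma). Of 5 measured genes of kidney tubules SLC12A1 and SLC34A1 were called higher in the Flag-IPs (-3.94 and -4.25) and LRP2, the most abundant, higher in the HA-IPs (0.29). Of 32 markers of heart muscle 26 were in the table, of which 23 were called higher in the Flag-IPs and only 1 in the other direction. Their median log2 fold change was -4.08. Their summed level was 148452 to 266526 normalized counts in the Flag-IPs and 44575 to 63900 in the HA-IPs, with CSRP3 at 0 in HA-IP replicates 1 and 2. Of the HA-IP sums, 36883 to 37496 came from ATP2A2, which was not called (0.13, adjusted p = 0.115 by limma). MYH7 had 42902 to 83895 normalized counts in the Flag-IPs, against 1031, 478 and 6766 in HA-IP replicates 1, 2 and 3. The part of the heart muscle markers in the results below was not tested. In an immunoprecipitate of a mixed culture, fewer cells that hold a transcript and fewer transcripts per cell cannot be told apart.

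To show the regulatory sequence next to the expression values, the 250 bases before the RefSeq start (GRCh38.p14) were read for the 65 members that had an entry. Paralogs that share a catalytic activity are printed here, since EZH2 and EZH1 had the pair ratio that differed most between the IPs, and KDM1A and KDM1B were both higher in the HA-IPs. Each sequence runs 5′ to 3′ on the strand of the gene and stops at the outermost start of the gene in GENCODE. Capitals mark the letters CCAAT (the CCAAT box) or TTTCCCGC and TTTGGCGC (letters of the E2F site), searched on both strands. The EZH2 sequence is chr7:148884322-148884541 on the minus strand, the EZH1 sequence chr17:42745050-42745290 on the minus strand, the KDM1A sequence chr1:23019218-23019442 on the plus strand and the KDM1B sequence chr6:18155172-18155328 on the plus strand.
EZH2: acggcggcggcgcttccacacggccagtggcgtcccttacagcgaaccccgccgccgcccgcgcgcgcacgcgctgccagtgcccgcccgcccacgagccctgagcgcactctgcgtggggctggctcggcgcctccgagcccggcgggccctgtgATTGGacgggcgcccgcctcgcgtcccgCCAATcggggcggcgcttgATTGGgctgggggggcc
EZH1: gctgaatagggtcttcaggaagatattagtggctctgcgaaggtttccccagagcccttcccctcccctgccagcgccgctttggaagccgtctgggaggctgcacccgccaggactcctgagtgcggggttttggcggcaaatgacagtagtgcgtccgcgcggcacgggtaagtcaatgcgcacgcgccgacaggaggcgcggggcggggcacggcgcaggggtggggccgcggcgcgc
KDM1A: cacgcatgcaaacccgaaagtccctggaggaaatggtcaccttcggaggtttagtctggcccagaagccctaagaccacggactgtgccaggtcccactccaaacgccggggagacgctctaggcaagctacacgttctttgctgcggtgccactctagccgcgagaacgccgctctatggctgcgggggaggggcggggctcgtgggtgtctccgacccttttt
KDM1B: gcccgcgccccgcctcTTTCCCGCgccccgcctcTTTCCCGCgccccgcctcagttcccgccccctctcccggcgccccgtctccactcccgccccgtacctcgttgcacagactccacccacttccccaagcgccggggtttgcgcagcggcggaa
In the EZH2 sequence the CCAAT letters occurred 3 times, starting at positions -94, -66 and -47 from the RefSeq start, which lies downstream of the printed end, whereas the EZH1 sequence held none. In KDM1B the E2F letters occurred 2 times, at -234 and -216 counted in the same way, and KDM1A held none of these letters.

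Over the whole windows of 250 bases, CCAAT was present in 22 of 65 members (33.8%), beside 32% of the 35116 RefSeq promoter windows of all genes. It was present in 7 of the 13 members called higher in the HA-IPs (CHD1, CHD8, EZH2, KDM3A, KDM3B, KDM4A and SMARCB1) and in 1 of the 4 called higher in the Flag-IPs, SMARCE1. The CHD8 window lies 18848 nt from the start of its canonical transcript, whereas the windows of the other 16 called members end at theirs. The E2F letters were present in 3 members (4.62%), beside 1.93% of all windows, and 1 of these 3, KDM1B, was called. The GC box GGGCGG was present in 73.8% of the members and 42.6% of all windows, and TATAAA in 1.54% and 10.7%. TTTGAA, the letters of the cell cycle homology region, was in 3.08% of the members and 13.3% of all windows and in none of the called members. These are matches of letters and were not tested as binding sites.

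The members were abundant transcripts with a wide range of levels. Per kilobase of the canonical transcript, their median level was 723 normalized counts, beside 221 over 13859 protein-coding genes. CHD4, the ATPase of the NuRD deacetylase complex, was highest at 6633 normalized counts per kilobase, with 5858 to 7243 over the 6 libraries. KDM5C, an H3K4 demethylase encoded on the X chromosome, followed at 4416 and SMARCA4, the main ATPase of SWI/SNF, at 4205. The ranges of these latter genes overlapped over the 6 libraries (4088 to 4758 and 3661 to 4549), so their order was not resolved. KDM1A (LSD1), which removes mono- and dimethylation of H3K4, stood at 3210 and CHD8 at 2295. At the lower end were SETD9 with 41.9 and CHD5, a CHD protein mostly of neural tissue, with 6.36 normalized counts per kilobase. Of the PRC2 catalytic subunits, EZH2 stood at 1196 normalized counts per kilobase and EZH1 at 268.

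**Figure D1:**
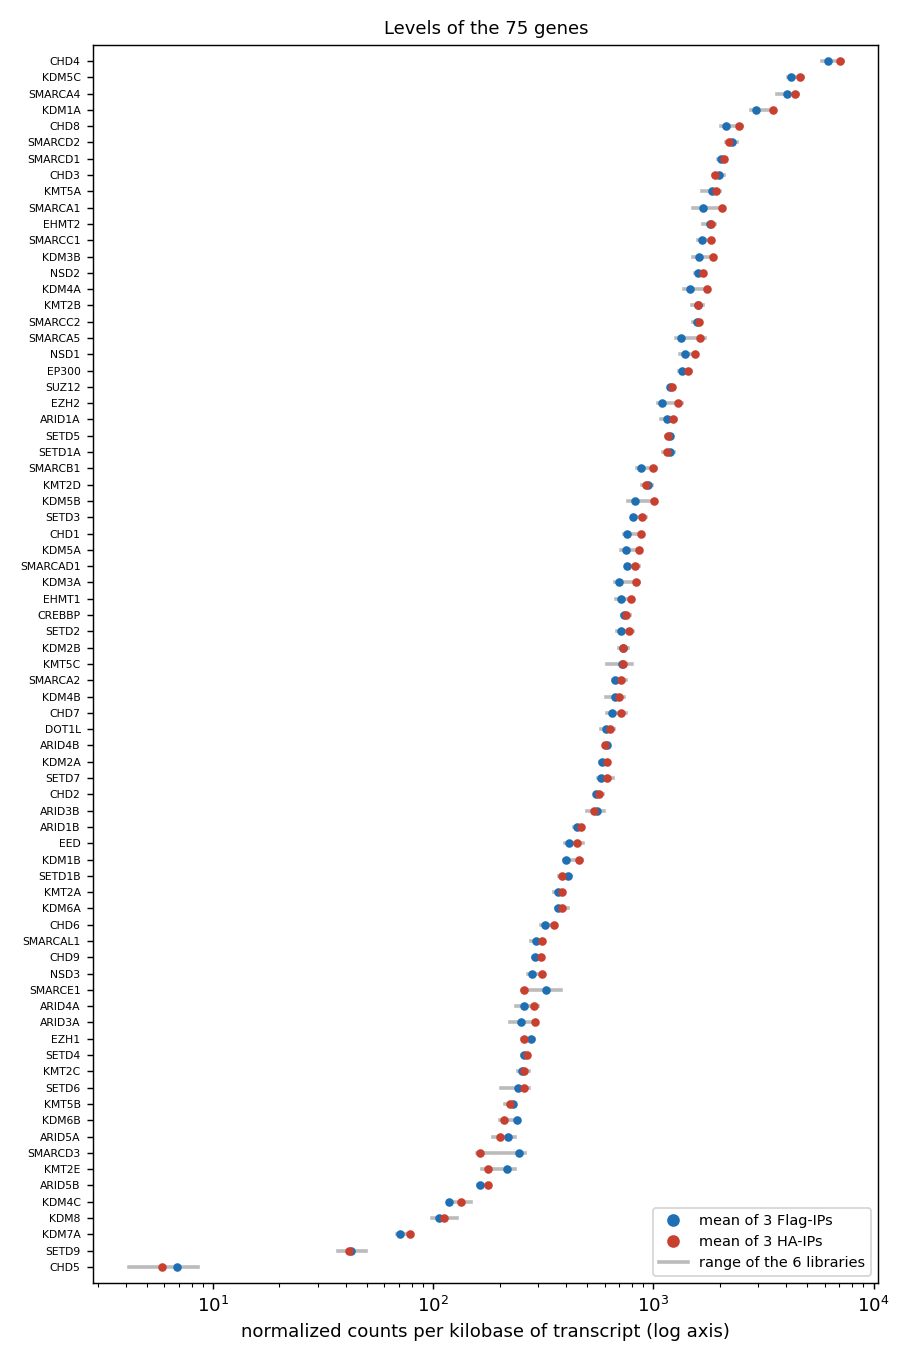
Levels of the 75 genes in normalized counts per kilobase of the canonical transcript, on a log axis. Blue and red points are the means of the 3 Flag-IPs and the 3 HA-IPs, and grey lines span the 6 libraries; the genes run from CHD4 at 6633 down to CHD5 at 6.36, and for most genes the difference between the IPs is small beside the distance between genes.

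Comparison of the HA-IPs with the Flag-IPs asked which of these transcripts were recovered more with the tag predicted for S and G2/M. In the HA-IPs 13 of the 75 genes were higher (17.3%), beside 5.79% of all 16834 genes. In the Flag-IPs 4 were higher (5.33%), beside 7.1% of all genes. The calls were made with limma on log2(normalized counts + 1), with p-values adjusted over all genes and a threshold of 0.05. The 13 were the demethylases KDM1A, KDM1B, KDM3A, KDM3B, KDM4A, KDM5A and KDM5B, the ISWI ATPases SMARCA1 and SMARCA5, CHD1 and CHD8, the SWI/SNF subunit SMARCB1 and the PRC2 methyltransferase EZH2. The 4 were the SWI/SNF subunits SMARCD3 and SMARCE1, the SET domain protein KMT2E and the H3K27 demethylase KDM6B. Differences were modest, with log2 fold changes (HA-IP over Flag-IP) of 0.18 to 0.30 among the 13 and of -0.59 to -0.19 among the 4.

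Without regard to the threshold, more members were higher in the HA-IPs than lower. All 3 HA-IPs lay above all 3 Flag-IPs for 30 members (40%), beside 16.1% of all genes, and all 3 Flag-IPs lay above for 5 (6.67%), beside 16.1% of all genes. The mean log2 value was higher in the HA-IPs for 57 members (76%), beside 49% of all genes, and for 49 after quantile normalization and 46 with the same total per library. The median log2 fold change over the members was 0.082, beside -0.0049 over all genes. After quantile normalization these medians were 0.049 and 0.044, and with the same total per library 0.029 and -0.057. The share of all genes with a higher mean in the HA-IPs was not computed under those 2 scalings. When each gene was centred on its own mean, the median over the members was -0.082, -0.048 and 0.0049 in Flag-IP replicates 1, 2 and 3, and 0.031, 0.061 and 0.045 in the HA-IPs. Flag-IP replicate 3 thus lay nearest to the HA-IPs. The number of calls depended on single libraries, as 0 members were called higher in the HA-IPs by limma without Flag-IP replicate 2 (17 at an unadjusted p under 0.05) and 23 when Flag-IP replicate 3 was left out, against 5, 3 and 4 when it was HA-IP replicate 1, 2 or 3. On the recovered reads of all 6 libraries, edgeR and DESeq2 each called the same 13 higher in the HA-IPs. In the other direction edgeR called the same 4, and DESeq2 called 3, without KDM6B (adjusted p = 0.0572 by DESeq2).

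**Figure D2:**
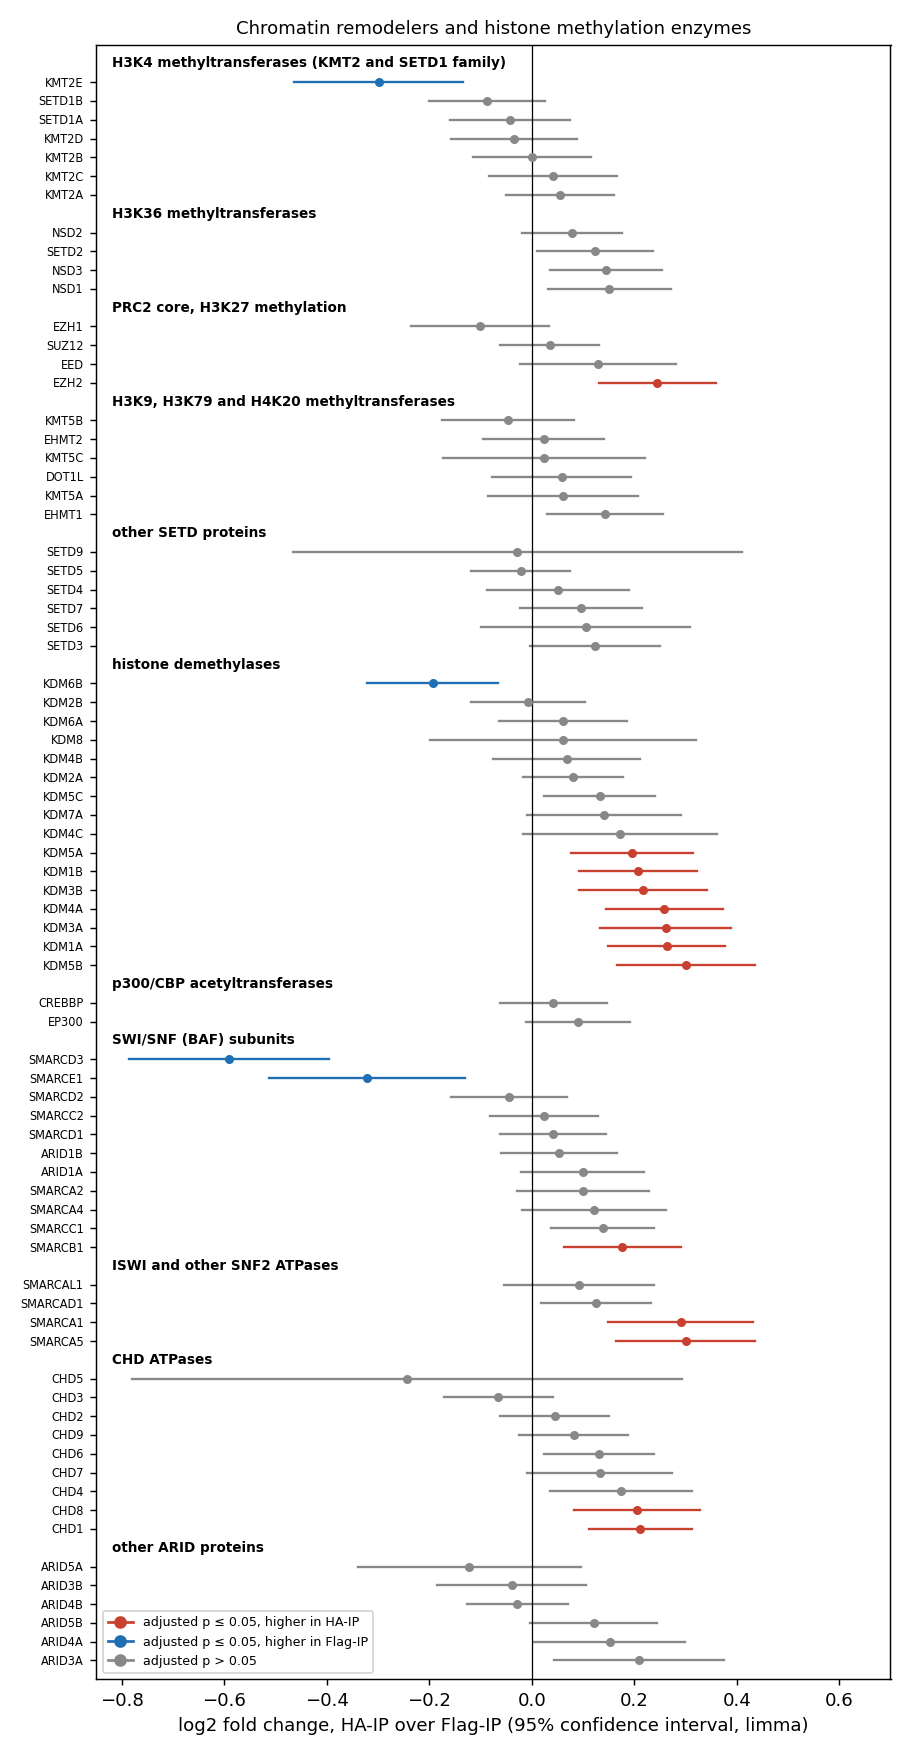
Log2 fold change (HA-IP over Flag-IP) of the 75 genes, grouped by role, with 95% confidence intervals from limma. Red marks the 13 genes called higher in the HA-IPs, of which 7 are demethylases, blue the 4 called higher in the Flag-IPs, and grey the 58 not called.

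The H3K4 methyltransferases of the KMT2 and SETD1 family include the catalytic subunits of the COMPASS complexes. In this family of 7, limma called 0 higher in the HA-IPs, as did edgeR and DESeq2. It called 1, KMT2E, higher in the Flag-IPs, which was also the only one of the 7 with an unadjusted p under 0.05. The median log2 fold change was -0.03, and it was negative under every scaling tried (down to -0.10). KMT2E binds trimethylated H3K4 through its PHD finger and is not known as an active methyltransferase. Its normalized counts were 1832, 1715 and 1526 in the Flag-IPs, against 1302, 1348 and 1467 in the HA-IPs. The groups did not overlap, although the lowest Flag-IP and the highest HA-IP, both replicate 3, were close. The log2 fold change was -0.30 (SE 0.075, adjusted p = 0.0250 by limma), and the call was lost without Flag-IP replicate 2 or HA-IP replicate 1 or 2 (adjusted p up to 0.112). KMT2E overlaps SRPK2 and KMT2E-AS1 on the other strand, of which the higher had a mean of 2121 normalized counts, and whether the counting used strand was not given in the sources used here. KMT2A, the founding member of the family, had a log2 fold change of 0.06 (SE 0.048, adjusted p = 0.507 by limma), which turned to -0.0064 after quantile normalization.

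The H3K36 methyltransferases were all higher in the HA-IPs in mean without any of them being called. NSD1, NSD2 and NSD3, which add mono- and dimethylation, and SETD2, which adds trimethylation, had log2 fold changes of 0.08 to 0.15. In all 4 the 3 HA-IPs lay above the 3 Flag-IPs, and the 4 kept a positive fold change under every scaling. NSD1 had 17248, 17698 and 19534 normalized counts in the Flag-IPs, against 19734, 20643 and 20060 in the HA-IPs, a log2 fold change of 0.15 (SE 0.054, adjusted p = 0.0938 by limma). NSD2 had the smallest difference, 0.08 (SE 0.045, adjusted p = 0.291 by limma). The unadjusted p was under 0.05 for 3 of the 4, and limma, edgeR and DESeq2 called 0. Without Flag-IP replicate 3, NSD1 and NSD3 were called.

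Within PRC2, which methylates H3K27, 1 of the 4 core genes was called, the catalytic subunit EZH2. EZH2 (ENSG00000106462, chr7:148807257-148884321 in GRCh38), the subunit of dividing cells, had 2965, 2793 and 2954 normalized counts in the Flag-IPs, against 3571, 3299 and 3458 in the HA-IPs. The HA-IPs all exceeded the Flag-IPs, with means of 2904 ± 96.1 and 3443 ± 137 (SD, n = 3 each) and a log2 fold change of 0.25 (SE 0.052, adjusted p = 0.0120 by limma). Its call held in 4 of 6 fits with a library left out and was lost without Flag-IP replicate 2 or HA-IP replicate 1, with adjusted p up to 0.0789. EZH1, the paralog of resting and differentiated cells, had 1216, 1335 and 1309 normalized counts in the Flag-IPs, against 1179, 1240 and 1176 in the HA-IPs. These groups overlapped, and the log2 fold change of -0.10 (SE 0.061) did not pass the test (adjusted p = 0.322 by limma). The other core subunits, SUZ12 at 0.03 (adjusted p = 0.671) and EED at 0.13 (adjusted p = 0.265), also did not pass. Reads of SUZ12 can be shared with the pseudogene SUZ12P1, which had a mean of 452 normalized counts.

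Enzymes of H3K9, H3K79 and H4K20 gave no call. EHMT1 and EHMT2 (GLP and G9a) methylate H3K9, DOT1L methylates H3K79, KMT5A adds the first methyl group of H4K20, and KMT5B and KMT5C add the later ones. Of these 6 genes limma, edgeR and DESeq2 called 0, and 1, EHMT1, had an unadjusted p under 0.05. The EHMT1 libraries did not overlap, with 3460, 3658 and 3804 normalized counts in the Flag-IPs, against 3958, 4137 and 3955 in the HA-IPs, and the log2 fold change was 0.14 (SE 0.052, adjusted p = 0.0962 by limma). KMT5A had 4600, 5216 and 5557 normalized counts in the Flag-IPs, against 5097, 5513 and 5384 in the HA-IPs. Its groups overlapped, and the fold change of 0.06 (95% CI -0.09 to 0.21, adjusted p = 0.615 by limma) became -0.015 without Flag-IP replicate 1. KMT5B was at -0.05 (adjusted p = 0.674). DOT1L overlaps AP3D1 on the other strand, with a mean of 15310 normalized counts. The remaining SETD proteins, 6 genes, had 0 with an unadjusted p under 0.05 and 0 calls by limma, edgeR or DESeq2. They ran from SETD3, a methyltransferase of actin, at 0.12 (adjusted p = 0.200) to SETD9 at -0.03 (adjusted p = 0.948), whose 51.7 to 69.1 normalized counts gave the wide interval of -0.47 to 0.41 and whose value was above 0 after quantile normalization and with the GC content and length trends removed.

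Histone demethylases made up 7 of the 13 calls higher in the HA-IPs. Of 16 enzymes 7 were higher in the HA-IPs at the threshold and 1 was lower, 14 had a higher mean in the HA-IPs under every scaling, and in 11 all HA-IPs lay above all Flag-IPs. The median log2 fold change was 0.16, and 0.10 to 0.15 after quantile normalization, with the same total per library or with the trends with transcript length and GC content removed. The count of 7 became 5, 4 and 6 under these, as KDM5A was lost under all of them, KDM3B under the first pair and KDM1B with the same total. The called enzymes act on H3K4 (KDM1A, KDM1B, KDM5A and KDM5B), on H3K9 (KDM3A and KDM3B) and on H3K9 and H3K36 (KDM4A).

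KDM5B, which removes trimethylation of H3K4, had the largest of these differences. Its normalized counts were 7095, 7391 and 8432 in the Flag-IPs, against 9273, 9342 and 9541 in the HA-IPs, means of 7639 ± 702 and 9385 ± 139 (SD, n = 3 each). The HA-IPs were tightly grouped and Flag-IP replicate 3 lay nearest to them. The log2 fold change was 0.30 (SE 0.062, adjusted p = 0.0102 by limma), a mean 23.2% higher, and the call was lost without Flag-IP replicate 2 or HA-IP replicate 2 (adjusted p up to 0.0676). KDM5A, its paralog, was named after its values were seen, with 7826, 7622 and 8657 normalized counts against 9041, 9094 and 9431. Its log2 fold change was 0.20 (SE 0.055, adjusted p = 0.0378 by limma), and it overlaps CCDC77, with a mean of 820 normalized counts. The KDM5A call held only when Flag-IP replicate 3 was the library left out (otherwise adjusted p up to 0.182). KDM5C, the most abundant of the KDM5 enzymes, was not called at 0.13 (SE 0.049, adjusted p = 0.105 by limma), although its libraries did not overlap.

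KDM1A had 8547, 8882 and 9589 normalized counts in the Flag-IPs, against 10800, 11051 and 10549 in the HA-IPs. The gap between the groups was wider than the spread among the HA-IPs, and the log2 fold change was 0.26 (SE 0.052, adjusted p = 0.00895 by limma). KDM1B, the second enzyme of the LSD family, had 1800, 1783 and 1858 normalized counts against 2086, 2034 and 2161. Its log2 fold change was 0.21 (SE 0.052, adjusted p = 0.0255 by limma). Both enzymes use FAD rather than iron as the other KDM families do. KDM4A had 6206, 6503 and 7020 normalized counts in the Flag-IPs, against 7826, 7887 and 7863 in the HA-IPs, with a log2 fold change of 0.26 (SE 0.052, adjusted p = 0.00959 by limma). The calls of KDM1A and KDM4A were lost without replicate 2 of either group (adjusted p up to 0.0598 and 0.0615), and that of KDM1B without Flag-IP replicate 2 or any HA-IP (up to 0.116). The 3 HA-IPs of KDM4A differed by less than those of any other gene in the plot of the called genes.

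KDM3A, which removes mono- and dimethylation of H3K9 and is also known as a hypoxia target, had 3114, 3145 and 3475 normalized counts in the Flag-IPs, against 4023, 3683 and 3952 in the HA-IPs. No library of one group reached the other, and the log2 fold change was 0.26 (SE 0.058, adjusted p = 0.0148 by limma). KDM3B had 10153, 10540 and 11757 normalized counts against 12400, 12503 and 12743, with a log2 fold change of 0.22 (SE 0.057, adjusted p = 0.0290 by limma). The KDM3A call was lost without Flag-IP replicate 2 or HA-IP replicate 1 or 3 (adjusted p up to 0.0863), and that of KDM3B without Flag-IP replicate 2 or any HA-IP (up to 0.134). KDM6B, an H3K27 demethylase induced by many signals, went the other way. It had 1540, 1651 and 1629 normalized counts in the Flag-IPs, against 1399, 1462 and 1354 in the HA-IPs, with a log2 fold change of -0.19 (SE 0.058, adjusted p = 0.0495 by limma). That p lay at the threshold, and the call held in 6 of 12 other settings and, of the fits with a library left out, only in that without Flag-IP replicate 1 (otherwise adjusted p up to 0.190). Its paralog KDM6A had a log2 fold change of 0.06 (adjusted p = 0.546) and was named after its values were seen.

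The acetyltransferases EP300 and CREBBP, transcriptional coactivators rather than methylation enzymes, were not called by limma, edgeR or DESeq2, and 0 of the 2 had an unadjusted p under 0.05. EP300 was at 0.09 (adjusted p = 0.238) and CREBBP at 0.04 (adjusted p = 0.632), and the CREBBP value was below 0 after quantile normalization, with the same total per library and with the GC content and length trends removed.

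**Figure D3:**
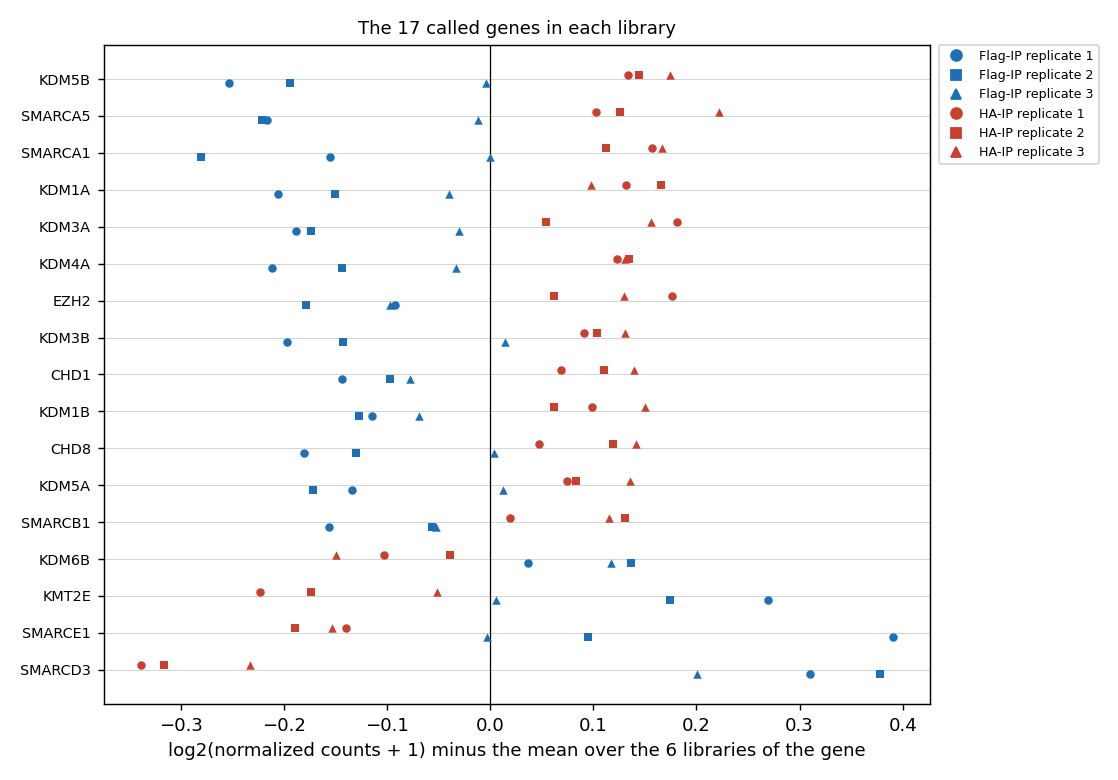
The 17 called genes in each of the 6 libraries, as log2(normalized counts + 1) minus the mean of the gene over the libraries. Blue symbols are the Flag-IPs, red symbols the HA-IPs and shapes the replicates; in all 17 genes the groups do not overlap, and Flag-IP replicate 3 is the Flag-IP nearest to the HA-IPs in most of them.

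The SWI/SNF (BAF) subunits were divided. Of 11 genes 1 was called higher in the HA-IPs and 2 higher in the Flag-IPs, and the median log2 fold change of 0.05 was about 0 with the same total per library (-6.9e-05). The call higher in the HA-IPs, SMARCB1, was lost under that scaling and after quantile normalization, whereas 2 higher in the Flag-IPs were called under both. SMARCD3 (ENSG00000082014, chr7:151238764-151277896 in GRCh38), the BAF60 subunit known for its role in heart and skeletal muscle, had the largest difference of the 75 genes. Its normalized counts were 473, 496 and 438 in the Flag-IPs, against 301, 306 and 324 in the HA-IPs, means of 469 ± 28.9 and 311 ± 12.1 (SD, n = 3 each). The gap between the groups exceeded the range within either. The log2 fold change was -0.59 (SE 0.089, adjusted p = 0.00225 by limma), a mean 33.6% lower in the HA-IPs, and SMARCD3 alone of the 17 passed in all 6 fits with a library left out and in all 12 other settings. The heart muscle markers stood at 266526, 201497 and 148452 summed normalized counts in Flag-IP replicates 1, 2 and 3 and at 46184, 44575 and 63900 in the HA-IPs. ATP2A2, which was not called, made up 37496, 36930 and 36883 of the HA-IP sums. Replicate 3 was the lowest Flag-IP and the highest HA-IP for both the markers and SMARCD3. This order was not particular to them. KMT2E and the genes DPY30 and MBD2 of the further lists had it too, whereas SMARCE1, KDM6B and the genes PRMT1 and KAT5 of those lists did not. The part of the heart muscle markers in the SMARCD3 difference was not tested. SMARCD3 overlaps CHPF2 on the other strand, with a mean of 2271 normalized counts.

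The paralogs SMARCD1 and SMARCD2, which occupy the same place in the complex and were named after their values were seen, were at 0.04 (adjusted p = 0.633) and -0.04 (adjusted p = 0.632). SMARCE1 (BAF57), an HMG-box subunit, had 1954, 1593 and 1488 normalized counts in the Flag-IPs, against 1353, 1307 and 1341 in the HA-IPs. The Flag-IPs were spread and replicate 1 lay far above the others, whereas the HA-IPs lay close together. The log2 fold change was -0.32 (SE 0.088, adjusted p = 0.0342 by limma), and leaving out libraries moved it between -0.40 and -0.21, with the call lost without Flag-IP replicate 2 or any HA-IP (adjusted p up to 0.125). SMARCB1 (SNF5), a core subunit and tumor suppressor, had 4362, 4678 and 4689 normalized counts against 4927, 5323 and 5268. Its log2 fold change was 0.18 (SE 0.052, adjusted p = 0.0460 by limma), close to the threshold, and it overlaps DERL3, with a mean of 728 normalized counts. Its adjusted p was 0.110 after quantile normalization and 0.127 with the same total, and of the fits with a library left out the call held only without Flag-IP replicate 3 (otherwise adjusted p up to 0.179). The ATPase SMARCA4 (BRG1) had 20416, 22626 and 24431 normalized counts in the Flag-IPs, against 23658, 25372 and 24205 in the HA-IPs. These overlapped, and the log2 fold change of 0.12 (95% CI -0.02 to 0.26, adjusted p = 0.252 by limma) did not pass.

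The ISWI ATPases, which space nucleosomes into regular arrays, were both called higher in the HA-IPs. SMARCA5 (SNF2H) had 9730, 9703 and 11212 normalized counts in the Flag-IPs, against 12138, 12338 and 13189 in the HA-IPs, a mean 23.1% higher and a log2 fold change of 0.30 (SE 0.062, adjusted p = 0.0109 by limma). SMARCA1 (SNF2L) had 6605, 6054 and 7353 against 8198, 7950 and 8256, with a log2 fold change of 0.29 (SE 0.065, adjusted p = 0.0145 by limma). Both paralogs differed between the IPs by nearly the same amount. The SMARCA5 call was lost without Flag-IP replicate 2 or HA-IP replicate 3 (adjusted p up to 0.0739), and that of SMARCA1 without Flag-IP replicate 2 or any HA-IP (up to 0.0806). The other SNF2 ATPases of the group, SMARCAD1 and the annealing helicase SMARCAL1, were at 0.12 (adjusted p = 0.122) and 0.09 (adjusted p = 0.423). All 4 had positive fold changes and the first pair was called under every scaling.

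Of the 9 CHD ATPases 2 were called higher in the HA-IPs and 7 had a positive log2 fold change, 6 after quantile normalization or with the same total per library. Under each of those scalings 1 of the 2 calls was lost, that of CHD8 (adjusted p = 0.0849 and 0.0585 by limma). CHD1, which binds methylated H3K4 and spaces nucleosomes over transcribed genes, had 6015, 6215 and 6300 normalized counts in the Flag-IPs, against 6970, 7174 and 7320 in the HA-IPs. Replicates were tight in both groups, and the log2 fold change was 0.21 (SE 0.046, adjusted p = 0.0126 by limma). CHD8, a regulator linked to neurodevelopment and named after its values were seen, had 17090, 17701 and 19417 against 20012, 21029 and 21361, with a log2 fold change of 0.20 (SE 0.056, adjusted p = 0.0348 by limma). The CHD1 call was lost without Flag-IP replicate 2 or HA-IP replicate 2 or 3 (adjusted p up to 0.0660), and that of CHD8 held only without Flag-IP replicate 3 (otherwise up to 0.153). CHD4 had 38025, 39336 and 44077 normalized counts in the Flag-IPs, against 43176, 46687 and 47014 in the HA-IPs. Flag-IP replicate 3 exceeded HA-IP replicate 1, so that the groups overlapped, and the log2 fold change of 0.17 (SE 0.063) gave an adjusted p of 0.0963 by limma. Without Flag-IP replicate 3 that p was 0.00426. Its NuRD paralog CHD3 had 14170, 14639 and 15418 against 13716, 14215 and 14317, a log2 fold change of -0.07 (SE 0.048, adjusted p = 0.430 by limma). After quantile normalization it was -0.15 and CHD3 was called higher in the Flag-IPs (adjusted p = 0.0270). CHD5, at 40.8 to 84.0 normalized counts, had a log2 fold change of -0.24 (95% CI -0.78 to 0.29), so that a difference was not detectable at this depth.

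Among the remaining ARID proteins limma, edgeR and DESeq2 called 0 of 6, and 2 had an unadjusted p under 0.05. ARID3A, a DNA-binding transcription factor, had 1322, 1514 and 1637 normalized counts in the Flag-IPs, against 1650, 1750 and 1752 in the HA-IPs, with a log2 fold change of 0.21 (SE 0.076, adjusted p = 0.0968 by limma). With the trends with transcript length and GC content removed, ARID3A was called. ARID5A, an RNA-binding regulator of cytokine transcripts, was lowest at -0.12 (adjusted p = 0.480).

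Ratios of related genes within a library are left unchanged by a single scaling factor per library, though not by quantile normalization, and 18 such pairs were compared. In 8 pairs the 3 HA-IPs did not overlap with the 3 Flag-IPs. Ratios of other gene pairs were not computed, so this count has no background share beside it. Among single genes, 16.1% of all genes did not overlap in each direction. Which gene of a pair is the numerator is arbitrary, so the sign of a difference carries no direction shared between pairs. The exact permutation test gave its smallest possible p, 0.1, for each of these 8 pairs, and 0.225 when adjusted over the 18 pairs, so none could pass a threshold of 0.05 in this design. The widest difference was that of EZH2 to EZH1, whose log2 ratio was 1.29, 1.07 and 1.17 in the Flag-IPs, against 1.60, 1.41 and 1.56 in the HA-IPs. Its mean was 1.17 ± 0.11 in the Flag-IPs and 1.52 ± 0.098 in the HA-IPs (SD, n = 3 each), a difference of 0.35. The CHD4 to CHD3 ratio, of the alternative NuRD ATPases, had a mean of 1.46 ± 0.052 in the Flag-IPs and 1.70 ± 0.035 in the HA-IPs, a difference of 0.24. ARID4A and ARID4B, subunits of the SIN3 deacetylase complex, differed by 0.18, from -1.28 ± 0.13 to -1.10 ± 0.042. KDM5B to KDM5C differed by 0.17, from -1.68 ± 0.076 to -1.51 ± 0.062.

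The other pairs without overlap were EHMT1 to EHMT2 (0.12), SMARCC1 to SMARCC2 (0.11), KMT2C to KMT2D (0.08) and SETD1A to SETD1B (0.05). Ratios of the alternative ATPases SMARCA4 to SMARCA2 and SMARCA5 to SMARCA1 overlapped between the groups, with differences of 0.02 and 0.0094 on the log2 scale. The difference in the ISWI ratio was smaller than the spread between replicates.

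**Figure D4:**
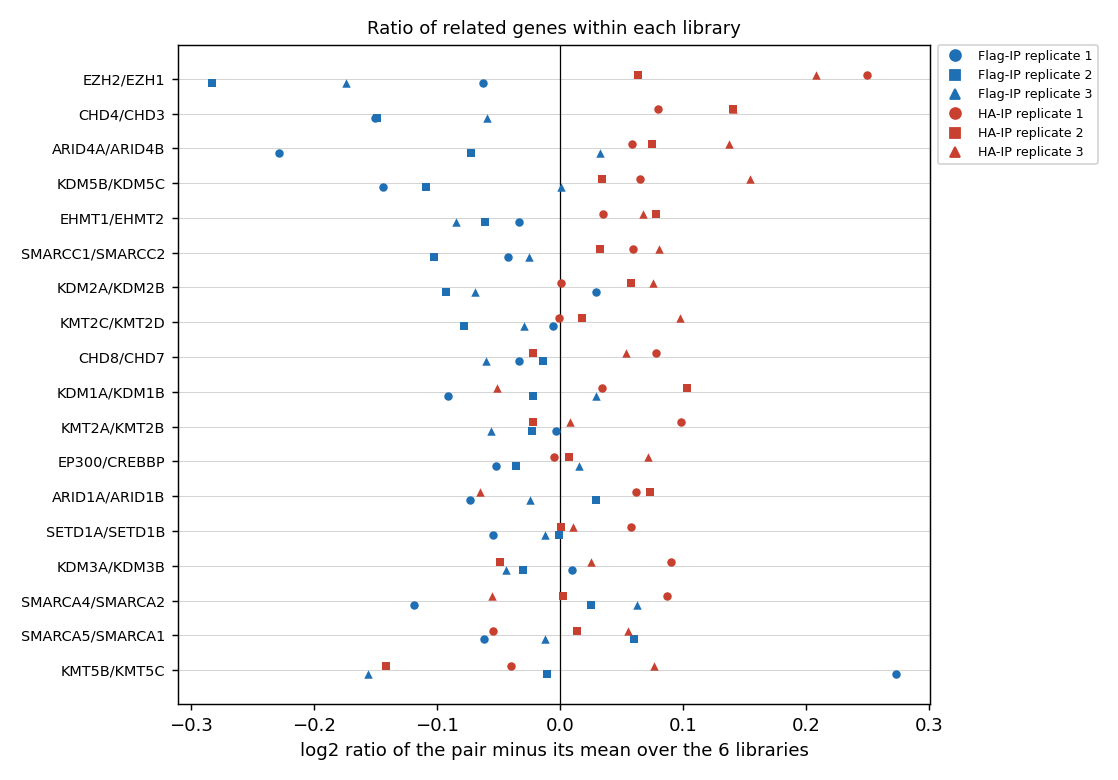
Log2 ratio of 18 pairs of related genes in each library, minus the mean of the pair over the 6 libraries. Blue symbols are the Flag-IPs and red symbols the HA-IPs; the pairs are ordered by the difference, from EZH2/EZH1 (0.35) at the top, and in 8 pairs all red symbols lie to the right of all blue ones.

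The members encode large proteins. Their median canonical transcript was 6022 nt with 23 exons and a coding length of 3894 nt, beside 3411 nt, 9 exons and 1431 nt over 13859 protein-coding genes. Of all protein-coding genes 80.9% were shorter than the median member, and 40 of the 75 members lay in the longest quintile. The fold change of all protein-coding genes varied with length, with a median log2 fold change of -0.11 in the shortest quintile, then -0.01, 0.02 and 0.03, and 0.06 in the longest. In that longest quintile 11.0% were called higher in the HA-IPs and 4.22% higher in the Flag-IPs. In the shortest quintile these shares were 1.84% and 13.3%. GC content of the members (median 49.4%) was close to that of all protein-coding genes (48.9%). The median was 44.1% in the 13 members called higher in the HA-IPs, beside 50.2% in those not called. Across quintiles of all protein-coding genes from low to high GC content, 9.02%, 10.4%, 8.41%, 4.55% and 2.34% were called higher in the HA-IPs. The shares called higher in the Flag-IPs lay between 6.28% and 7.79%.

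With the trends with transcript length and GC content removed in each library, 13 members were called higher in the HA-IPs and 4 lower, beside 8.15% and 7.39% of the 16683 genes with an annotation. Of the 13, 12 were the same genes, ARID3A took the place of KDM5A, and the median over the members was 0.06 beside 0.01 over all genes. Across the 75 members themselves the log2 fold change had a Pearson correlation of 0.13 with log2 transcript length and of -0.32 with GC content, given as a description, since the genes share their libraries. The EZH2 transcript is among the shorter ones of the group, at 2654 nt, and its log2 fold change was 0.26 with the trends removed. SMARCD3, at 1907 nt, is shorter still. It was higher in the Flag-IPs, as was the median of the shortest quintile of protein-coding genes. Its log2 fold change went from -0.59 to -0.53 with the trends removed, and its call held. The part of length in these differences was not tested.

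**Figure D5:**
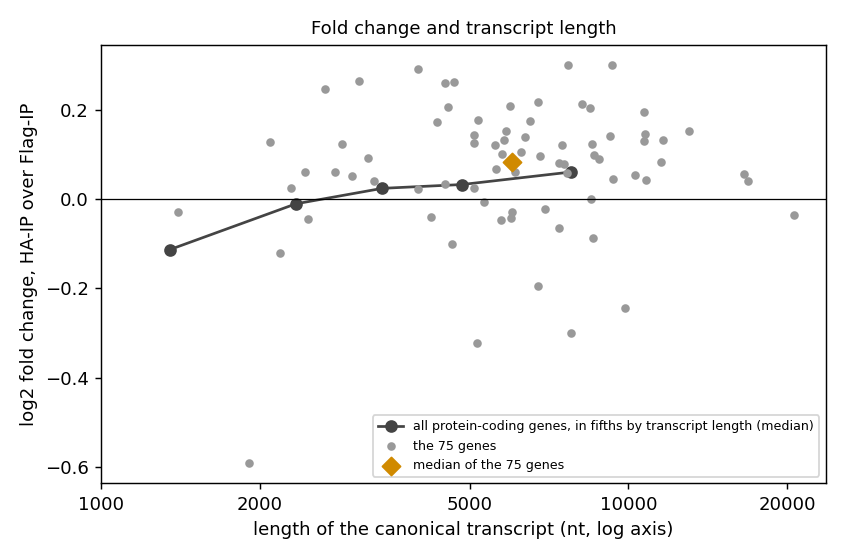
Log2 fold change (HA-IP over Flag-IP) against the length of the canonical transcript in nt (log axis). Grey points are the 75 genes, the diamond their medians (6022 nt and 0.082), and the line joins the medians of all protein-coding genes in quintiles of length, which run from -0.11 to 0.06.

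Partner proteins of these complexes, and further enzymes of the same kinds, were examined with lists of 91 genes, of which 90 were in the table. Among them 13 were called higher in the HA-IPs and 4 lower, beside 5.79% and 7.1% of all genes, with a median log2 fold change of 0.07. The remaining SNF2-type ATPases had 4 of 11 called higher in the HA-IPs and all 11 positive (10 after quantile normalization or with the GC content and length trends removed, 9 with the same total). The 4 calls became 2 after quantile normalization and 2 with the same total. These 4 were HLTF and SHPRH, ubiquitin ligases of damage tolerance at 0.23 and 0.24, BTAF1, a remover of TBP, at 0.22, and TTF2, which releases RNA polymerase II in mitosis, at 0.21 (adjusted p = 0.0160 to 0.0244 by limma). Of 7 partners of ISWI, BAZ1A and BAZ1B were called at 0.18 and 0.21, although 0 of the 7 were called after quantile normalization or with the same total. Of 18 further SWI/SNF subunits PBRM1, DPF2 and PHF10 were called at 0.23, 0.20 and 0.19. The 3 calls became 2 after quantile normalization, 1 with the same total and 5 with the GC content and length trends removed. Among NuRD partners 1 of 11 was called, MBD2, the reader of methylated DNA, which was lower in the HA-IPs at -0.31 (adjusted p = 0.0152 by limma). With the GC content and length trends removed, 2 of the 11 were called in each direction, and DESeq2 called 1 in each.

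COMPASS partners had 1 call in each direction. DPY30, a small subunit shared by all COMPASS complexes, had 606, 607 and 599 normalized counts in the Flag-IPs, against 351, 418 and 442 in the HA-IPs, a log2 fold change of -0.59 (SE 0.094, adjusted p = 0.00320 by limma), and WDR82 was at 0.17, a call lost after quantile normalization and with the same total. EPOP, which links PRC2 to elongin, had 644, 775 and 961 normalized counts in the Flag-IPs, against 1046, 1137 and 996 in the HA-IPs, a log2 fold change of 0.43 (SE 0.12, adjusted p = 0.0361 by limma), and was the only one called of 6 accessory subunits of PRC2, with 0 called with the same total per library. Of 14 further methyltransferases SETDB1, an H3K9 methyltransferase, at 0.22 and SETMAR, a SET domain fused to a transposase, at 0.40 were higher in the HA-IPs. PRMT1, the main arginine methyltransferase, was lower at -0.16 (adjusted p = 0.0392 by limma). With the GC content and length trends removed, 0 of the 14 were called higher in the Flag-IPs and 3 in the HA-IPs. Of 7 genes of the INO80, SRCAP and TIP60 complexes, the acetyltransferase KAT5 was lower in the HA-IPs at -0.21 (adjusted p = 0.0340 by limma). With those trends removed, 0 of the 7 were called higher in the Flag-IPs and 1 in the HA-IPs. Of 6 further demethylases limma called 0, with 2 at an unadjusted p under 0.05 and 0 called by edgeR or DESeq2. With those trends removed, 1 of the 6 was called higher in the HA-IPs.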

How the data were processed

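RNA was recovered from 3 Flag-IPs and 3 HA-IPs, selected for poly(A) and sequenced from both ends. Per the submitters' processing notes, the authors used Trimmomatic 0.36 for trimming, STAR 2.5.2b for mapping to GRCh38 and featureCounts (Subread 1.5.2) for counting per gene. They excluded genes with few reads and divided the counts by DESeq2 size factors, so the deposited values are a normalized signal per gene. The table also holds the log2 fold changes and adjusted p-values that the authors obtained with DESeq2, which were not used. All values in the 6 columns were whole multiples of what 1 read is worth to within 0.0001 read, from which reads were recovered.

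Groups were taken from the labels. All 16834 genes were fitted as log2(normalized counts + 1) in limma 3.58.1 (R 4.3.3), with the variance trended on mean level, no block, a two-sided test and Benjamini-Hochberg adjustment over all genes, at 0.05. Fold changes on this scale understate those of low genes. No test was run over lists. Ratios of pairs were compared with a two-sided exact permutation test. Alternatives were pseudocounts of 0.1 and 10, a mean of at least 50 normalized counts, other scalings, DESeq2 1.42.0 and edgeR 4.0.16 (TMM, quasi-likelihood) run on recovered reads, an untrended limma fit, leaving out each library, a replicate block, a threshold of 0.01, and removal of trends with GC content and transcript length (splines with 5 degrees of freedom, MASS 7.3.60.0.1). The fits were tested on simulated data with planted changes larger than those of the called members, so that test does not bear on calls of their size. Positions, lengths and GC content came from GENCODE release 44, which holds 16683 of the identifiers (99.1%), and promoter sequences from RefSeq. Python 3.11.15 and matplotlib 3.10.9 were used for the rest.

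The members, lists and tests were chosen with earlier results of these data known. Genes named are, in each direction, up to 10 called members with the smallest adjusted p, the highest and lowest member of each role list, EZH2, KMT5A, SMARCA4 and CHD4, and the members of up to 4 pairs without overlap. Others were named after their values were seen, as were genes of the lists of partners and further enzymes.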

Additional observations from a re-analysis of the deposited data

How the results depend on the processing

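The number of libraries, 3 per group, and their spread limit these results, and the part of depth was not tested. Of the 13 members called higher in the HA-IPs, 8 remained with the same total per library, 0 without the trend of the variance (16 at an unadjusted p under 0.05 by limma; 13 by edgeR and by DESeq2) and 2 at an adjusted p of at most 0.01, and 0 to 23 were called with a library left out. Of the 4 called higher in the Flag-IPs, 1 remained without the trend, 1 at 0.01, 2 with the replicate block and 3 by DESeq2. With a library left out, 1 to 4 were called (1 without Flag-IP replicate 2 and without HA-IP replicates 1 and 2, 2 without HA-IP replicate 3). The median log2 fold change of the members was 0.029 with the same total, beside -0.057 over all genes, and 0.049 beside 0.044 after quantile normalization. Over all genes 2171 were called, 188 without the trend, 704 at 0.01 and 620 to 3059 with a library left out. Higher in the HA-IPs were 975, against 471 with the same total, 6 without the trend, 177 at 0.01 and 103 to 1550 with a library left out. Higher in the Flag-IPs were 1196, against 182, 527 and 517 to 1509, and with the same total the calls were 2.80% higher in the HA-IPs and 9.36% higher in the Flag-IPs. Of the genes named by the rule, log2 fold changes that turned sign, none of them called, were those of CREBBP (-0.0022 after quantile normalization, -0.011 with the same total, -0.0030 with the trends with GC content and length removed, with or without the replicate block), KMT2A (-0.0064, quantile), KMT5A (-0.015 without Flag-IP replicate 1, -0.015 to 0.12 over the libraries left out) and SETD9 (0.16, quantile; 0.091 with those trends removed, with or without the block; 0.086 and 0.013 without replicate 2 of the Flag-IPs and of the HA-IPs, -0.12 to 0.086 over the libraries left out). Further members not named by that rule also turned sign with a library left out, such as EHMT2 (-0.027 to 0.068), SMARCC2 (-0.0085 to 0.048) and KMT5C (-0.088 to 0.11). The replicate block gave 14 calls higher in the HA-IPs, and 14 and 4 in the 2 directions with the trends removed. Same-numbered libraries did not deviate together (r = -0.156, 0.0306 and -0.310 over 13141 genes). Because the deviations were taken from group means of 3 libraries, these correlations cannot decide whether a Flag-IP and an HA-IP shared a culture. Over the named genes, 575 of the other values kept direction and side of the threshold, 87 fell below it and 11 passed it. Only called genes could fall below the threshold, whereas the 575 also include values of uncalled genes that stayed uncalled. The 575 are therefore no measure of how stable the calls were.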
